A study of Mus musculus with 6 samples.

Results

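SR proteins and heterogeneous nuclear ribonucleoproteins (hnRNPs) are the RNA-binding proteins that decide, together with the small nuclear RNPs, which exons of a pre-mRNA are joined. The genes described here are 10 SR protein genes (symbols starting with Srsf), 20 hnRNP genes (symbols starting with Hnrnp) and 9 partners, namely Tra2a, Tra2b, Ptbp1, Ptbp2, Ptbp3, Sf3b1, Sf1, U2af1 and U2af2. The rule that chose them uses only their symbol in GENCODE mouse release M21, with pseudogenes left out, and no measured value. It was set with earlier results of these data known. They make up 39 of the 16540 genes with deposited values. Srsf12 has a symbol that meets the same rule and was not analysed here.

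RNA was sequenced from NIH-3T3 cells, an established fibroblast line of the NIH/Swiss mouse strain. Lentivirus delivered Cas9 together with the guide PC sg2 (n = 2 libraries), the guide PC sg5 (n = 2) or, for the controls, the guide R26 sg1 (n = 2). PC stands for pyruvate carboxylase, the mitochondrial enzyme encoded by Pcx that converts pyruvate to oxaloacetate, and R26 for the Rosa26 locus, a site commonly cut as a neutral control. All 3 kinds of pool, controls included, carried Cas9, were selected with 2 ug/mL puromycin, were used without cloning, and were kept for 48 h in DMEM with 0.2 mM glutamine and 10% dialyzed serum. Nothing in the labels states if a guide's 2 libraries derive from different cultures, and the p-values then reflect the spread between these samples alone, part of which could be technical.

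SR proteins carry RNA recognition motifs and a tail rich in arginine and serine, bind exonic enhancers and help U1 snRNP and the U2AF dimer to settle on nearby splice sites. HnRNPs coat nascent transcripts and often, though not always, lower the use of the sites they cover. Sf1 reads the branch point, U2af2 the pyrimidine tract and U2af1 the AG at the end of the intron, after which U2 snRNP, with Sf3b1 as a central subunit, takes the place of Sf1. Many genes of both families limit their own output by splicing in a poison exon or keeping an intron, which sends the transcript to nonsense-mediated decay or holds it in the nucleus. In the annotation, 28 of the 39 genes (71.8%) have at least 1 transcript marked for nonsense-mediated decay, against 28.2% of the 13161 protein-coding genes in the table. At least 1 transcript with a retained intron is annotated for 31 of the 39 (79.5%), against 57.7% of those protein-coding genes. Neither comparison was matched for the number of annotated transcripts per gene or for abundance, and both describe the annotation only. The values below are gene totals, in which productive and unproductive transcripts are summed.

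Values are read counts divided by a size factor of the library, called normalised counts here. The depth ranged from 22895172 reads in PC sg5 replicate 2 to 71710049 in R26 sg1 replicate 2, and the lowest count of any of the 39 genes in any library was 610 reads, so counting error was small for all of them. The targeted gene, Pcx, had 316 and 375 normalised counts with PC sg2, 713 and 716 with PC sg5, and 2914 and 3015 with R26 sg1, a log2 fold change of -2.58 ± 0.072 (SE; limma, adjusted p = 4.30e-18), and the noncoding transcript Gt(ROSA)26Sor at the control guide's locus differed by 0.0041 (limma, adjusted p = 0.968). Of the fibroblast markers, 9 of 9 were listed, with summed levels of 998779 to 1035648 normalised counts in PC pools and 1827852 to 1895241 in control pools, and all 9 were lower in PC pools. The summed markers of other cell types were far lower. They came to 8.55 to 19.1 in PC pools and 57.4 to 58.7 in control pools for epithelium (1 of 6 listed, without Epcam, Krt8 and Krt18), and to 876 to 932 in PC pools and 1429.7 to 1539 in control pools for leukocytes (5 of 6, without Ptprc). Endothelial markers (3 of 5) came to 209 to 263 in PC pools and 342 to 349 in control pools, muscle markers (1 of 5) to 11.7 to 26.3 in PC pools and 72.3 to 90.6 in control pools, and neuronal markers (3 of 5) to 197 to 369.8 in PC pools and 327 to 389 in control pools. The part of these marker differences in the results below was not tested, and in bulk RNA fewer cells of a kind cannot be told apart from less RNA per cell.

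With both PC guides combined, 17 of the 39 splicing regulators rose and 14 fell against the control guide, and 8 did not pass the threshold (limma on log2 of the normalised count + 1, Benjamini-Hochberg adjusted p under 0.05 over 16526 tested genes). The 31 that passed are 79.5% of the set. That share has to be read against a series in which 67.9% of all tested genes passed, 34.3% higher and 33.6% lower, and in which 85.4% of the 7915 genes averaging 1000 normalised counts or more passed, 48.1% higher and 37.3% lower. All 39 genes passed the filter on low values and all 39 averaged more than 1000 normalised counts, so the second of these shares is the nearer background.

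The changes were small. Only Hnrnph3 moved by at least 1.5-fold, 1 of 39, whereas 33.9% of all tested genes and 29.5% of those averaging 1000 or more passed the threshold at that size. None of the 39 moved by at least 2-fold, against 17.8% of all tested genes. Among the genes averaging 1000 or more, such changes were rarer, as the 90th percentile of the size of the log2 fold change was 1.01. The median size of the log2 fold change, whatever its sign, was 0.21 over the 39 genes, 0.44 over all tested genes and 0.36 over the abundant genes. The median with its sign was 0.03 over the 39 and -0.0093 over all tested genes, and was not computed over the abundant genes. Groups did not overlap for 33 of the 39. All 4 PC libraries lay above both control libraries for 18 of them and below both for 15. Of these 33, Tra2a and Srsf1 did not pass the threshold. Over all tested genes, the groups lay apart in either direction for 73.2%. For the abundant genes, the nearer background, that share was not computed, so no excess among the 39 can be read from it.

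**Figure D1:**
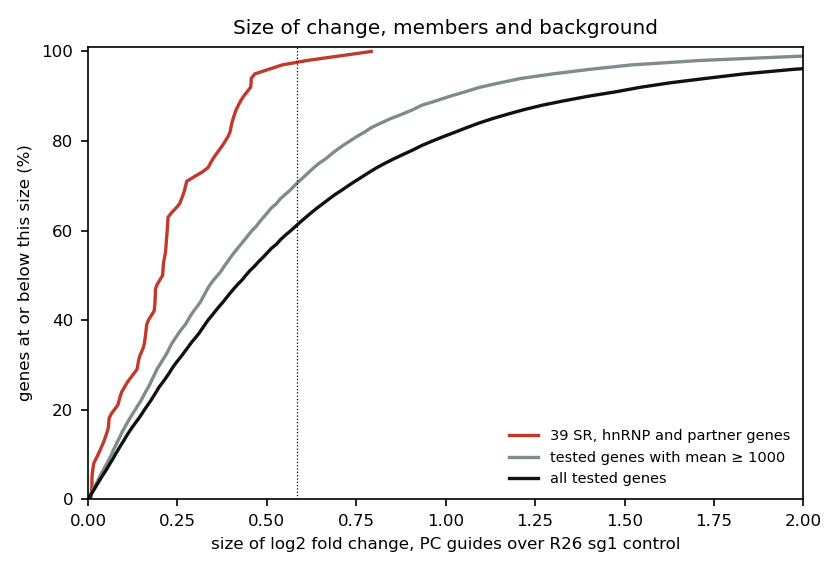
The curves give, for each size of log2 fold change between PC and control pools on the horizontal axis, the percentage of genes at or below that size, for the 39 splicing regulators, for the tested genes averaging 1000 normalised counts or more and for all tested genes. The curve of the 39 lies to the left, with a median of 0.21 against 0.36 and 0.44, and 1 gene lies past the dotted line at 1.5-fold.

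Read beside the abundant genes, of which 48.1% were higher and 37.3% lower, the families gave the following counts. Of the 20 hnRNP genes, 11 (55%) were higher, 7 (35%) were lower and 2 did not pass, shares near those of the abundant genes; the median log2 fold change was 0.15. Of the 10 SR protein genes, 1 (10%) was higher, 5 (50%) were lower and 4 did not pass, with a median of -0.06. Of the 9 partners, 5 were higher, 2 were lower and 2 did not pass, with a median of 0.09. Quantile normalisation gave 14 higher and 5 lower hnRNP genes and 2 higher and 5 lower SR protein genes; rescaling without the 50 most abundant genes gave 12 and 6 hnRNP genes and 2 and 4 SR protein genes. No test was made of the difference between the families. Summed over each library, the SR protein genes came to 99197 ± 2151 normalised counts in PC pools and 109257 ± 2471 in control pools, which is 90.8% of the control mean (SD, n = 4 and n = 2 libraries here and in all means below). The hnRNP sum was 430869.5 ± 5136 normalised counts in PC pools and 404310.4 ± 4988 in control pools, 106.6% of the control mean, and that of the partners 93717 ± 889.6 normalised counts in PC pools and 86031 ± 416 in control pools, 108.9%. These percentages depended on the unit: as shares of all reads, the sums were 95.3% of the control mean for SR protein genes, 111.8% for hnRNP genes and 114.3% for the partners. All 39 together took 1.26% to 1.27% of the reads in PC libraries and 1.14% to 1.17% in control libraries.

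**Figure D2:**
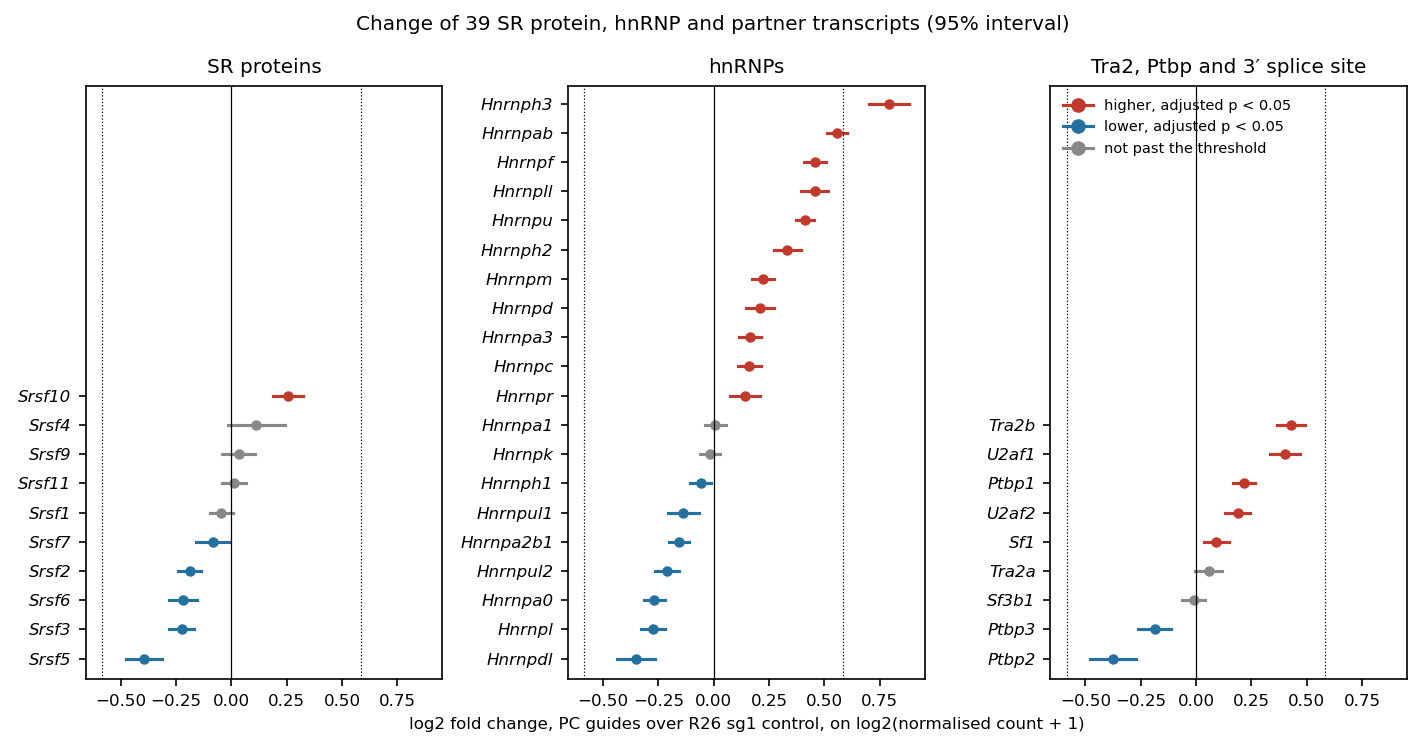
Each point is the log2 fold change of 1 gene between PC pools (4 libraries) and control pools (2 libraries) on the horizontal axis, with its 95% interval, for hnRNPs, SR proteins and partners, coloured by its side of the threshold. The hnRNP genes run from -0.35 (Hnrnpdl) to 0.79 (Hnrnph3), the SR protein genes from -0.40 (Srsf5) to 0.26 (Srsf10).

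The E-box CACGTG, a palindrome that several basic helix-loop-helix factors bind, was looked for in the RefSeq promoter windows (GRCm38.p6, 250 bases before to 50 after the annotated start), a search made with the results of the genes known. A window was found for 35 of the 39 genes. It held the motif in 6 of them (17.1%): Hnrnpa3, Hnrnpd, Hnrnpf, Hnrnph2, Hnrnpm and Ptbp1. All 6 were among the 15 genes with a window that were higher in PC pools, and none of the 12 that were lower nor of the 8 that did not pass had it. Among all tested genes with a window, 11.4% had the motif, 14.5% of those higher, 9.10% of those lower and 9.81% of those that did not pass. Over all promoter windows in the table the share was 7.15%. The windows shown are the 4 in which the motif lies upstream of the start; they run from 40 bases before the motif to 40 bases after it, or to the last base before the start where that comes sooner (in Hnrnpa3, Hnrnpd and Ptbp1), 5′ to 3′ on the gene's strand, with the motif in capitals. The first base of the motif lies 18 bases upstream of the start in Hnrnpa3 (chr2:75659201-75659258, plus strand), 32 in Hnrnpd (chr5:99978939-99979010, minus strand), 79 in Hnrnpf (chr6:117907685-117907770, plus strand) and 45 in Ptbp1 (chr10:79854347-79854431, plus strand).
Hnrnpa3: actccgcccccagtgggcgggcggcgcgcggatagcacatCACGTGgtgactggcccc
Hnrnpd: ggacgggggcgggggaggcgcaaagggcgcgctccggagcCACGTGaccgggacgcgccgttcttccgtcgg
Hnrnpf: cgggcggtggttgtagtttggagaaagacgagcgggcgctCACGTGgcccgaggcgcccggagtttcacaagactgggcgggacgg
Ptbp1: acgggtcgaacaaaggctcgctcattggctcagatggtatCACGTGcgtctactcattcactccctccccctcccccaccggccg
In Hnrnpm and Hnrnph2 the motif lies within the 50 bases after the start. The cyclic AMP response element TGACGTCA is also a palindrome, which neither contains nor is contained in the E-box. It was found for 1 of the 35 genes (2.86%), one that did not pass the threshold, against 3.48% of all tested genes. A match is a description of the sequence, and no binding was measured.

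Among the hnRNPs that rose, 3 belong to the H and F family, whose members bind runs of guanosines and can raise or lower the use of an exon depending on where they sit. Hnrnph3 (ENSMUSG00000020069, chr10:63014664-63024217 in GRCm38, minus strand) had 2754 and 2828 normalised counts with PC sg2, 2851 and 2886 with PC sg5, and 1643 and 1624 with R26 sg1. Every PC library lay above both control libraries, and the log2 fold change was 0.79 ± 0.042 (SE; limma, adjusted p = 2.91e-13). Hnrnpf, whose promoter window with an E-box is shown above, had 18574 and 18896 normalised counts with PC sg2, 18308 and 18489 with PC sg5, and 13467 and 13588 with R26 sg1, a log2 fold change of 0.46 ± 0.024 (SE; limma, adjusted p = 2.32e-13). Hnrnph2, on the X chromosome, rose by 0.33 on the log2 scale, with 9285 ± 225 normalised counts in PC pools and 7370.3 ± 18.7 in control pools. Their relative Hnrnph1 lay at 28572 ± 370.4 normalised counts in PC pools and 29775 ± 780.0 in control pools, and its log2 fold change of -0.059 passed narrowly (limma, adjusted p = 0.0267), with a call that single libraries decided: the adjusted p was 0.359 without R26 sg1 replicate 1 and 0.0884 without PC sg2 replicate 2, and under quantile normalisation the value was 0.14 in the other direction. The call of Hnrnph1 is therefore not firm, while those of the other 3 family members kept their direction and side of the threshold in all 15 alternative fits.

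Hnrnpab (ENSMUSG00000020358, chr11:51600100-51606847 in GRCm38, minus strand) encodes a protein related to hnRNP D that binds RNA and single-stranded DNA. It had 39627 and 39441 normalised counts with PC sg2, 37430.5 and 37103 with PC sg5, and 26279.7 and 25887 with R26 sg1, and its log2 fold change was 0.56 ± 0.021 (SE; limma, adjusted p = 7.00e-16). With a mean of 13803 normalised counts per kb of exon in PC pools and 9376 in control pools, it had the highest level of the 39 per length in PC pools, while Hnrnpa0 and Hnrnpa1 were above it in control pools. Hnrnpu encodes scaffold attachment factor A, a large nuclear protein that binds both RNA and chromatin. It had 53619 and 53912 normalised counts with PC sg2, 53104 and 52525 with PC sg5, and 39798 and 40226 with R26 sg1, a log2 fold change of 0.41 ± 0.020 (SE; limma, adjusted p = 4.12e-14). The groups of libraries lay apart for both genes.

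Hnrnpll and Hnrnpl encode paralogs that bind CA-rich RNA; in mouse T cells the product of Hnrnpll is known for the skipping of Ptprc (CD45) exons. They moved in opposite directions. Hnrnpll had 8473 and 8259 normalised counts with PC sg2, 8190.0 and 8358 with PC sg5, and 6018 and 6114 with R26 sg1, a log2 fold change of 0.46 ± 0.030 (SE; limma, adjusted p = 8.74e-12). Hnrnpl had 14256 and 14028 normalised counts with PC sg2, 14325 and 13799.7 with PC sg5, and 17304 and 16855 with R26 sg1, a log2 fold change of -0.28 ± 0.026 (SE; limma, adjusted p = 4.22e-09). Within each library, the ratio of Hnrnpll to Hnrnpl normalised counts was 0.594 and 0.589 with PC sg2, 0.572 and 0.606 with PC sg5, and 0.348 and 0.363 with R26 sg1, so all 4 PC libraries had the higher ratio.

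Hnrnpd and Hnrnpdl are a second pair of this kind. Hnrnpd encodes AUF1, which binds AU-rich elements and is best known for its part in mRNA decay, and Hnrnpdl encodes its close relative. Hnrnpdl had 9573 and 8655 normalised counts with PC sg2, 9088 and 8403 with PC sg5, and 11871 and 10909 with R26 sg1, a log2 fold change of -0.35 ± 0.040 (SE; limma, adjusted p = 9.12e-08). Hnrnpd, also shown above with an E-box, averaged 10612 ± 402 normalised counts in PC pools and 9178 ± 228 in control pools, a log2 fold change of 0.21 ± 0.031 (SE; limma, adjusted p = 3.94e-06). Hnrnpd over Hnrnpdl gave ratios of 1.14 and 1.24 (PC sg2), 1.18 and 1.19 (PC sg5), 0.787 and 0.827 (R26 sg1). Each PC library thus had a higher ratio than either control library. This ratio is not corrected for length and does not rank the pair by level. Per kb of exon, Hnrnpd averaged 1443 normalised counts in PC pools and 1248 in control pools. Hnrnpdl was above it in both, at 1853 and 2364.

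The A and B family, whose members coat pre-mRNA and in many transcripts favour exon skipping, was split. Hnrnpa0, whose product binds AU-rich elements, fell, with 30401 and 31635 normalised counts with PC sg2, 29739 and 29694 with PC sg5, and 36535 and 36576 with R26 sg1, and had a log2 fold change of -0.27 ± 0.022 (SE; limma, adjusted p = 5.22e-10), which was -0.085 under quantile normalisation. Hnrnpa2b1 averaged 36382 ± 251 normalised counts in PC pools and 40562 ± 1045 in control pools, a log2 fold change of -0.16 that became 0.02, with an adjusted p of 0.305, under quantile normalisation. Hnrnpa3, the E-box of which lies closest to the start among the windows shown, rose by 0.16 on the log2 scale (0.33 under quantile normalisation), with 33641 ± 959 normalised counts in PC pools and 30000.1 ± 555 in control pools. Hnrnpa1, the best known member, had 38406 ± 764 normalised counts in PC pools and 38200.1 ± 742 in control pools; its log2 fold change of 0.0077 did not pass (limma, adjusted p = 0.784), and the 95% interval ran from -0.040 to 0.056.

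Hnrnpm rose by 0.22 on the log2 scale, and by 0.34 under quantile normalisation. Hnrnpc, which binds uridine tracts and competes there with U2af2, rose by 0.16 and Hnrnpr by 0.14 on the log2 scale. Of the relatives of Hnrnpu, Hnrnpul2 fell by 0.21 on the log2 scale and Hnrnpul1 by 0.14. The call of Hnrnpul1 was lost without an intensity trend (limma, adjusted p = 0.0730). Hnrnpk, which binds cytosine-rich tracts through KH domains, averaged 37055 ± 395 normalised counts in PC pools and 37465 ± 992 in control pools; its log2 fold change of -0.016 did not pass (limma, adjusted p = 0.547; 95% interval -0.062 to 0.030).

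**Figure D3:**
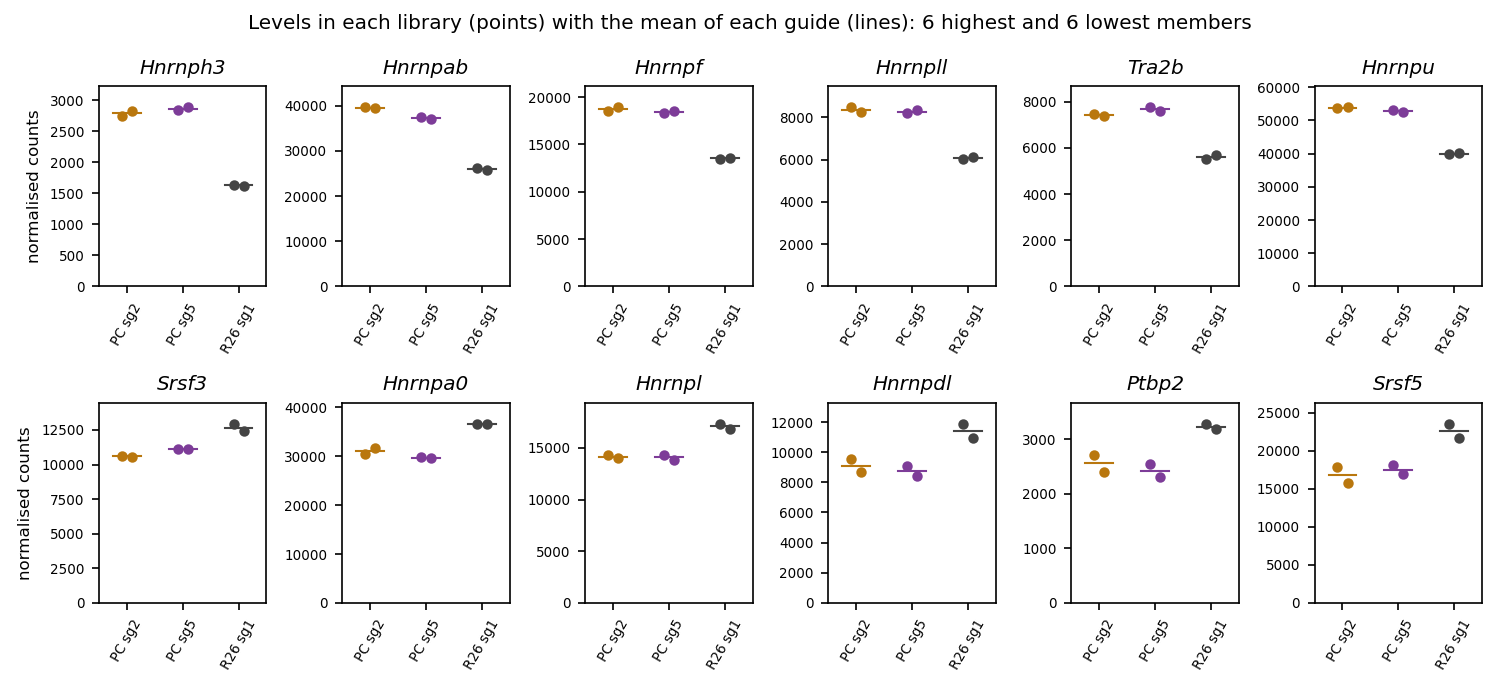
Each panel shows normalised counts on the vertical axis, starting at 0, for the 2 libraries of PC sg2, PC sg5 and R26 sg1 (points) with the mean of each guide (line), for the 6 genes with the highest and the 6 with the lowest log2 fold change among those past the threshold. In every panel the 4 PC libraries lie on 1 side of both control libraries, as for Hnrnph3, with 2754 to 2886 in PC libraries and 1624 and 1643 in control libraries.

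Among the SR protein genes, Srsf5 (ENSMUSG00000021134, chr12:80945504-80950507 in GRCm38, plus strand), which encodes SRp40, fell most. It had 17937 and 15814 normalised counts with PC sg2, 18082 and 16908 with PC sg5, and 23531 and 21673 with R26 sg1, and its log2 fold change was -0.40 ± 0.040 (SE; limma, adjusted p = 1.11e-08). The highest PC library lay below the lowest control library. Srsf3 encodes the smallest SR protein, which also serves mRNA export and limits its own level through a poison exon. It had 10639.6 and 10544 normalised counts with PC sg2, 11091 and 11147 with PC sg5, and 12934 and 12423 with R26 sg1, a log2 fold change of -0.22 ± 0.027 (SE; limma, adjusted p = 2.05e-07). Srsf6 fell by 0.22 on the log2 scale and Srsf2, which encodes the nuclear speckle protein SC35, by 0.19 (its log2 fold change was -0.12 under quantile normalisation). Srsf7, like Srsf3 an adaptor for export, had a log2 fold change of -0.084 that passed narrowly (limma, adjusted p = 0.0442). Its call was lost with DESeq2 (adjusted p = 0.0718) and without an intensity trend (limma, adjusted p = 0.150). Rescaling without the 50 most abundant genes gave -0.039 (limma, adjusted p = 0.334). The call was also lost in 4 of the 6 fits that each left out 1 library. There the log2 fold change was -0.069 without PC sg2 replicate 1 and -0.065 without PC sg5 replicate 2. It was -0.078 without R26 sg1 replicate 1 and -0.089 without R26 sg1 replicate 2.

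Srsf10 was the SR protein gene that rose; its product is known as a repressor of splicing when dephosphorylated, as in heat shock. It averaged 8083 ± 283 normalised counts in PC pools and 6769 ± 74.9 in control pools, a log2 fold change of 0.26 ± 0.033 (SE; limma, adjusted p = 6.32e-07). The ratio of Srsf10 to Srsf5 was 0.454 and 0.505 with PC sg2, 0.466 and 0.459 with PC sg5, and 0.290 and 0.310 with R26 sg1. Of the 4 genes that did not pass, Srsf1, the prototype of the family known as SF2/ASF, had a log2 fold change of -0.046 (95% interval -0.10 to 0.0059), Srsf11 one of 0.011 (-0.045 to 0.067) and Srsf9 one of 0.032 (-0.043 to 0.11). Srsf4, with 1257 ± 53.0 normalised counts in PC pools and 1164 ± 82.9 in control pools the gene of the 39 with the fewest normalised counts (a total not corrected for length), had a log2 fold change of 0.11 and the widest interval, -0.017 to 0.24, which reaches changes as large as that of Hnrnpd.

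The Tra2 proteins resemble SR proteins and activate exons through GAA-rich enhancers. Tra2b rose, with 7459.8 and 7395 normalised counts with PC sg2, 7749 and 7579.6 with PC sg5, and 5512 and 5689 with R26 sg1, and had a log2 fold change of 0.43 ± 0.031 (SE; limma, adjusted p = 3.88e-11). Tra2a averaged 7212 ± 99.5 normalised counts in PC pools and 6933 ± 46.6 in control pools, and its log2 fold change of 0.057 did not pass (limma, adjusted p = 0.100; 95% interval -0.0057 to 0.12). Tra2b over Tra2a gave ratios of 1.02 and 1.04 (PC sg2), 1.09 and 1.05 (PC sg5), 0.799 and 0.817 (R26 sg1). All 4 PC libraries thus had the higher ratio. Not being corrected for length, it does not rank these genes by level. Per kb of exon, Tra2b averaged 817 normalised counts in PC pools and 606 in control pools. Tra2a was above it in both, at 1038 and 998.

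The PTB proteins bind pyrimidine tracts and repress exons. Ptbp1 is the widespread form and Ptbp2 the form of neurons; in cells with much PTBP1, an exon of Ptbp2 is skipped and the transcript is degraded. Ptbp1, the last of the windows shown above, rose, with 23335 and 23841 normalised counts with PC sg2, 23400.5 and 23124 with PC sg5, and 19975 and 20331 with R26 sg1, and had a log2 fold change of 0.22 ± 0.023 (SE; limma, adjusted p = 2.91e-08), which was 0.34 under quantile normalisation. Ptbp2 (ENSMUSG00000028134, chr3:119718742-119784466 in GRCm38, minus strand) fell, with 2715 and 2408 normalised counts with PC sg2, 2545 and 2309 with PC sg5, and 3279.9 and 3182 with R26 sg1, and had a log2 fold change of -0.38 ± 0.050 (SE; limma, adjusted p = 8.99e-07). Ptbp3 averaged 3943 ± 85.6 normalised counts in PC pools and 4485 ± 143 in control pools, a log2 fold change of -0.19 ± 0.036 (SE; limma, adjusted p = 9.50e-05). The ratio of Ptbp1 to Ptbp2 normalised counts was 8.59 and 9.90 with PC sg2, 9.19 and 10.0 with PC sg5, and 6.09 and 6.39 with R26 sg1, higher in every PC library than in either control library. Both transcripts are measured as gene totals, so the share of Ptbp2 with the skipped exon was not measured.

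The factors that recognise the 3′ splice site were changed in part. U2af1 had 5947 and 5900.3 normalised counts with PC sg2, 6086 and 5987 with PC sg5, and 4566 and 4481 with R26 sg1, a log2 fold change of 0.40 ± 0.032 (SE; limma, adjusted p = 2.53e-10). Its partner U2af2 had 11077 and 11364 normalised counts with PC sg2, 11066 and 10782 with PC sg5, and 9589 and 9849 with R26 sg1, a log2 fold change of 0.19 ± 0.028 (SE; limma, adjusted p = 3.58e-06). Sf1, which binds the branch point first, rose by 0.092 on the log2 scale (limma, adjusted p = 0.00375), and by 0.15 under quantile normalisation. Its call was lost without an intensity trend (limma, adjusted p = 0.0751). It was also lost without R26 sg1 replicate 2, where the log2 fold change was 0.076. Sf3b1 had 19099.8 and 19349 normalised counts with PC sg2, 19231 and 18635 with PC sg5, and 19616 and 18835 with R26 sg1. Its groups overlapped, and the log2 fold change of -0.011 did not pass (limma, adjusted p = 0.719), with a 95% interval of -0.064 to 0.042. Under quantile normalisation 4 of the genes that did not pass were past the threshold and higher, with log2 fold changes of 0.10 for Sf3b1, 0.16 for Hnrnpa1, 0.16 for Hnrnpk and 0.089 for Srsf11.

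Ratios within a library do not depend on how libraries were scaled, though they compare transcripts of different length and so carry no absolute meaning. Of 13 such ratios between related genes, 12 had all 4 PC libraries on 1 side of both control libraries. The pairs were picked with the results of their genes known, several of them a gene that rose over one that fell. The share of ratios lying apart was not computed for other gene pairs, so the count is a description only. Taken singly, 73.2% of all tested genes lay apart in this way. With 4 libraries against 2, the smallest two-sided p of an exact permutation test is 0.133, which these 12 reached (Benjamini-Hochberg adjusted p = 0.144 over the 13), so this test cannot place a ratio past 0.05 with these libraries. Hnrnpul2 over Hnrnpul1 was the exception, with an exact p of 0.400. Hnrnph3 over Hnrnph1 had the largest shift, with 0.0991 ± 0.00309 in PC pools and 0.0549 ± 0.000996 in control pools.

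**Figure D4:**
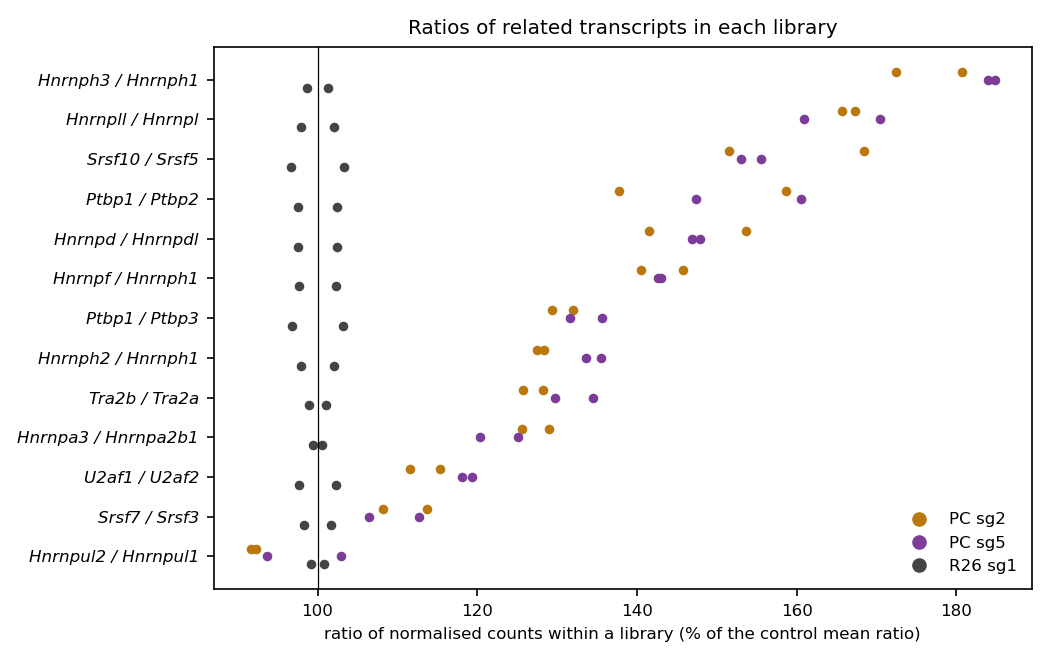
Each row is the ratio of 2 related transcripts within a library, on the horizontal axis as a percentage of the mean ratio of the 2 control libraries, with 1 point per library coloured by guide. Apart from Hnrnpul2 over Hnrnpul1, the points of PC sg2 and PC sg5 lie together on 1 side of those of R26 sg1; for Ptbp1 over Ptbp2 the ratio itself was 8.59 to 10.0 in PC libraries and 6.09 and 6.39 in control libraries.

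Levels can be compared between genes only per length, for which normalised counts were divided by the length of all annotated exons in kb. On that scale Hnrnpa0 (11339.6 in PC pools and 13650.4 in control pools), Hnrnpa1 (12181 in PC pools and 12115 in control pools) and Hnrnpab (13803 in PC pools and 9376 in control pools) had the highest levels. Hnrnpr (321 in PC pools and 291 in control pools), Srsf4 (353 in PC pools and 327 in control pools) and Ptbp2 (272 in PC pools and 352 in control pools) had the lowest. The exon length includes that of annotated transcripts with retained introns.

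Each PC guide was also set against the control guide by itself; these comparisons share the 2 control libraries. With PC sg2, 17 of the 39 genes were higher and 12 lower, where 32.9% of all tested genes were higher and 31.6% lower. With PC sg5, 17 were higher and 13 lower, where 32.6% of all tested genes were higher and 31.8% lower. Shares among the abundant genes, the nearer background, were not computed for single guides. With both guides combined they were 48.1% higher and 37.3% lower. At least 1.5-fold changes past the threshold numbered 2 with PC sg2 (Hnrnph3 and Hnrnpab) and 1 with PC sg5 (Hnrnph3), where 32.9% and 32.7% of all tested genes passed at that size. The calls of 3 genes differed between these comparisons, and their values stand side by side. Hnrnpul1 had a log2 fold change of -0.074 with PC sg2 (adjusted p = 0.0942, limma) and -0.20 with PC sg5 (adjusted p = 8.40e-05). Srsf7 had -0.11 with PC sg2 (limma, adjusted p = 0.0252) and -0.058 with PC sg5 (adjusted p = 0.232). Hnrnph1 had -0.048 with PC sg2 (limma, adjusted p = 0.122) and -0.071 with PC sg5 (adjusted p = 0.0233).

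Set directly against each other, PC sg5 and PC sg2 gave no gene of the 39 past the threshold in limma, while 0.242% of all tested genes (40 genes) passed. At an unadjusted p under 0.05 there were 4 of 39, or 10.3% (Hnrnpul1, Hnrnpab, Hnrnpa0 and Srsf3, the names chosen after their values were seen), against 10.6% of all tested genes. EdgeR's quasi-likelihood test called 0 and DESeq2 called 1, Hnrnpab, with a log2 fold change of -0.09 (adjusted p = 0.0188). Without PC sg5 replicate 1, Hnrnpul1 passed in limma with -0.19 (adjusted p = 0.0178); PC sg5 then has 1 library, which is assumed to vary like the other groups. The differences between the guides ran from -0.13 to 0.07 on the log2 scale and their 95% intervals from -0.21 to 0.17, so larger differences lie outside the intervals. Pcx itself averaged more with PC sg5 than with PC sg2, as its values above show.

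Other lists of splicing genes are given by their counts, beside 34.3% of all tested genes and 48.1% of the abundant genes higher, and 33.6% and 37.3% lower; no test of a list was made. Of the 8 Sm proteins, which form the ring shared by most spliceosomal snRNPs, all 8 were higher (median 0.31, against -0.0093 over all tested genes on the log2 scale); Snrpd1 (0.50) and Snrpb (0.50) led. Of 18 genes of U2 snRNP and the 3′ splice site, 14 were higher, 2 lower and 2 did not pass (median 0.33). Ddx46, the helicase that helps U2 snRNP bind the branch point, rose by 0.74 and Sf3b4, which sits in the same complex as Sf3b1, by 0.66, while Puf60 fell by 0.22 and Snrpb2 by 0.13 on the log2 scale. Of 13 genes of the U4/U6.U5 tri-snRNP, 10 were higher, 2 lower and 1 did not pass (median 0.31).

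Usp39, a tri-snRNP protein that lacks the ubiquitin protease activity of its relatives, changed more than any of the 39 regulators. It had 5559 and 5458 normalised counts with PC sg2, 5410.1 and 5288 with PC sg5, and 2252 and 2106 with R26 sg1, a log2 fold change of 1.32 ± 0.038 (SE; limma, adjusted p = 6.52e-18). Eftud2, the GTPase of U5 snRNP, rose by 0.62, while Sart1 fell by 0.23 and the helicase gene Snrnp200 by 0.061 on the log2 scale. Of 12 genes of U1 snRNP and the 5′ splice site, 4 were higher, 7 lower and 1 did not pass (median -0.10). By log2 fold change, Snrpc (0.34) and Rbm25 (0.14) were highest, Tia1 (-0.44) and Luc7l2 (-0.25) lowest. With library totals recomputed without the 50 most abundant genes, 5 of the 12 were higher and 3 lower, while quantile normalisation and edgeR each gave 4 higher and 7 lower and DESeq2 gave 3 and 6.

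SR proteins are phosphorylated by the SRPK and CLK kinases, dephosphorylated by PP1 and carried into the nucleus by transportins. The list for this machinery had 14 tested genes (Srpk3 was not among them) and also held the mRNA export gene Nxf1. Of the 14, 10 were higher, 3 lower and 1 did not pass, with a median of 0.14. Nxf1 was among those higher, by 0.072 on the log2 scale (limma, adjusted p = 0.0371). Tnpo1, the importin for hnRNP A1 and its relatives, averaged 27783 ± 952 normalised counts in PC pools and 15831 ± 67.8 in control pools, a log2 fold change of 0.81. Dyrk1a, a kinase that phosphorylates several SR proteins, rose by 0.69 on the log2 scale. Ppp1ca, a catalytic subunit of PP1, fell by 0.50 and the nuclear SR kinase gene Clk1 by 0.37 on the log2 scale. Of 34 tested genes for other splicing regulators (Esrp1, an epithelial one, was not among them), 15 (44.1%) were higher, 11 (32.4%) lower and 8 did not pass (median 0.05), shares near those of the abundant genes.

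Here the FET family was split, as Taf15 rose by 0.56 and Ewsr1 fell by 0.66 on the log2 scale. Cirbp, which encodes a cold-inducible RNA-binding protein, had 1131 ± 63.8 normalised counts in PC pools and 2484 ± 242 in control pools, a log2 fold change of -1.13. Nova1, known from neurons, averaged 108 ± 19.7 normalised counts in PC pools and 74.8 ± 19.3 in control pools, a log2 fold change of 0.53 (limma, adjusted p = 0.0324).

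**Figure D5:**
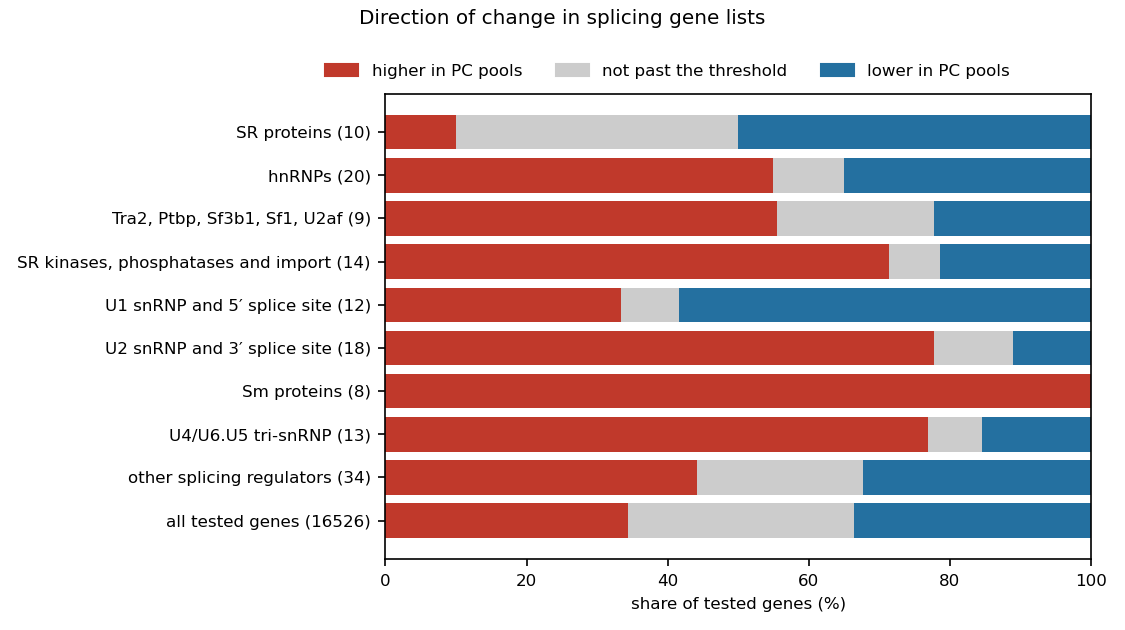
Bars give the percentage of tested genes in each list that were higher in PC pools, did not pass the threshold or were lower in PC pools (limma, adjusted p under 0.05, both PC guides against control), for the 3 families above, the 6 other splicing lists and all tested genes. The Sm proteins are all higher, while 5 of 10 SR protein genes and 7 of 12 genes of U1 snRNP and the 5′ splice site are lower; of all tested genes, 34.3% are higher and 33.6% lower.

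Reads of some members can be shared with other genes, and whether counting used the strand is not given in the sources used here. Exons of another annotated gene cover more than 10% of the exon length of 6 members, namely Srsf4 (43.0%), Hnrnpab (29.1%), Hnrnpf (26.5%), Srsf2 (25.3%), Ptbp1 (20.7%) and Hnrnpm (14.7%), while 22 have no such overlap. Apart from Mfsd11, the listed genes that overlap these 6 reached at most 6.57% of the member's level (March2, against Hnrnpm); Phykpl, against Hnrnpab, reached 2.98%. For Srsf2 the neighbour Mfsd11 reached 30.5% of its level and was higher by 0.54 on the log2 scale, so the value of Srsf2 is uncertain. Rufy2, which overlaps less of Hnrnph3, reached 85.6% of its level with a log2 fold change of -0.15. Another annotated gene with at least 95% identity over at least 200 bases exists for 21 of the 39, most for Hnrnpa3 with 28. Of those copies that are listed, Gm7964 reached 4.01% of the level of Hnrnpk and Gm12696 1.74% of that of Hnrnpc, and the part of such copies in the members' values was not tested.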

How the data were processed

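Polyadenylated RNA from 6 NIH-3T3 libraries was prepared with the NEBNext Ultra kit, per the labels' protocols. Tools listed without settings in the submitters' processing notes are bcl2fastq 2.17, then STAR, Trimmomatic, DESeq2 and featureCounts, with GRCm38 as build; annotation and strand use are not given in the sources. The authors deposited a signal per gene, read counts divided by a size factor of the library, which corrects for depth but not for gene length. In every library 100% of the values were whole multiples (tolerance 0.01) of what 1 read is worth, so whole reads were recovered; 3 reads, the floor for a count of 0, are worth 2.18 to 6.41 normalised counts, and this covers counting error only. Identifiers were matched to GENCODE M21, and 16498 of 16540 received a symbol.

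Values were tested as log2(normalised count + 1) with limma 3.58.1 (R 4.3.3). A single model held the 3 groups of 2 libraries, with a trend of the prior variance on intensity (3 residual degrees of freedom, prior median 17.3). Tests were two-sided, with Benjamini-Hochberg adjustment over the 16526 genes that reached 10 normalised counts in 2 libraries or more; 14 genes did not. Because of the added 1, the fold change of a gene with few counts is understated. The scripts were tested on simulated counts. Alternatives were a pseudocount of 10, no filter, a mean of at least 50, quantile normalisation, rescaling without the 50 most abundant genes, edgeR 4.0.16 and DESeq2 1.42.0 on the recovered reads, no trend, a replicate block, a 1.5-fold minimum and leaving out each library. EdgeR called 11424 genes and DESeq2 10604, against 11222 by limma. All members, the lists, the tests and the promoter motifs were chosen with earlier results of these data known. Every member is named; of each other list, the 2 highest and 2 lowest log2 fold changes past the threshold are, and values per library are given for the 6 highest and 6 lowest members and for Ptbp1, Ptbp2, Sf3b1 and U2af2. Values per library of U2af1 and Usp39 were added after they were seen. No outlier test was made with 2 libraries a group.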

Additional observations from a re-analysis of the deposited data

How the results depend on the processing

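Of the 31 members past the threshold for both PC guides against control, 26 kept their direction and their side of the threshold in all 15 alternative fits; the others were Hnrnph1, Hnrnpa2b1, Hnrnpul1, Sf1 and Srsf7. Leaving out 1 library at a time, which leaves its guide with a lone library assumed to vary like the others, gave 16 to 17 higher and 12 to 14 lower members for both guides together, 17 and 11 to 13 for PC sg2, 15 to 17 and 12 to 13 for PC sg5, and 0 to 1 lower for PC sg5 against PC sg2, where DESeq2 also called 1. A change of at least 1.5-fold left 1 higher and 0 lower for both guides together, 2 and 0 for PC sg2, and 1 and 0 for PC sg5. Quantile normalisation gave 22 higher and 12 lower and rescaling without the 50 most abundant genes 20 and 12, against 17 and 14; they moved the all-gene median to 0.05 and 0.03. Log2 fold changes with the other sign were, under quantile normalisation, Hnrnpa2b1 0.024, Hnrnph1 0.14, Hnrnpk 0.16, Sf3b1 0.10, Srsf1 0.046 and Srsf9 -0.0019, and with rescaling Hnrnpk 0.029 and Sf3b1 0.033. With 1 library left out, 5 members that were not past the threshold had either sign: Hnrnpa1 from -0.012 to 0.027, Hnrnpk from -0.043 to 0.011, Sf3b1 from -0.040 to 0.018, Srsf11 from -0.025 to 0.048 and Srsf9 from -0.011 to 0.075. The cause was not tested. Over all tested genes, deviations from the group means hardly correlated between libraries of the same replicate number (0.03, -0.02 and 0.03). Genes of few reads weigh as much there as abundant ones, so pairing among these members cannot be judged from it. The replicate block gave 17 higher and 14 lower members for both guides and 17 and 12 for PC sg2. It gave 17 and 13 for PC sg5 and 0 between the PC guides. For both guides against control, 11352 genes passed the threshold with the block, against 11222 without it. Between the PC guides, 160 passed with the block, against 40 without it. Between the PC guides the number of genes past the threshold moved widely with the alternative, from 0 without an intensity trend to 218 without PC sg5 replicate 1. With 2 libraries a group, the depth of PC sg5 replicate 2 limits genes of few reads, not these members.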
